A study of Mus musculus with 8 samples.

Results

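The 8 genes described here encode chloride channels, exchangers and cotransporters, and were followed in sensory neurons of the mouse dorsal root ganglion (DRG): the anoctamins Ano1, Ano3 and Ano6, the bestrophin Best1, the cation-chloride cotransporters Slc12a2 and Slc12a5, and the CLC family members Clcn3 and Clcn6. They were chosen by gene symbol, with earlier results of these data known, and all 8 were found among the 43372 symbols of the count table. RNA sequencing compared 2 populations of C57Bl/6 neurons, with 4 libraries each. The first came from Sst-IRES-Cre mice, where the somatostatin locus drives Cre recombinase, and the second from Trpv1-IRES-Cre mice, where the locus of the capsaicin and heat receptor drives it. At postnatal day 2 pups of both genotypes were injected intraperitoneally with a virus whose fluorescent protein is switched on by Cre, either AAV9-CAG-FLEX-eGFP-WPRE or its tdTomato counterpart (AAV9-CAG-FLEX-tdTomato-WPRE). Which reporter went with which genotype is not known here. At 3 to 5 weeks of age, 150 to 250 fluorescent cells per mouse, from mice of both sexes, were picked by hand. Cre marks any cell that has used the locus after injection, so a library is the mean of a mixed pool. In such pools fewer cells of a type and less RNA per cell cannot be told apart. Each pool gave 1 library, and the groups are called Sst and Trpv1 after the driver.

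Chloride currents act in sensory neurons in an unusual way. Slc12a2 encodes NKCC1, which carries sodium, potassium and chloride into the cell and keeps chloride inside DRG neurons high, while Slc12a5 encodes KCC2, which extrudes chloride in most central neurons. With chloride held high, opening a chloride channel lets chloride out and depolarizes the ending, so that calcium-activated chloride channels such as Ano1 can amplify a noxious or itch stimulus. The CLC proteins encoded by Clcn3 and Clcn6 are not surface channels but exchangers of chloride for protons on endosomes.

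Depth was 9021125 to 12153109 counts per Sst library and 7419027 to 9568508 counts per Trpv1 library. All 9 sensory neuron markers passed the filter on low counts, and their summed level ran from 5983 to 6701 CPM in Sst pools and from 4093 to 4735 CPM in Trpv1 pools (CPM are counts scaled to a common library size after TMM normalisation). Snap25 was higher (log2 fold change 1.02) and Scn9a lower (−0.65) in the Sst libraries, and the other 7 did not pass. All 4 markers of large myelinated neurons, Nefh, Pvalb, Ntrk2 and Ntrk3, were higher in the Sst libraries, at 1026 to 1817 CPM in sum against 214 to 427 CPM in Trpv1 pools. The Schwann cell list (12 genes) summed to 406 to 712 CPM in Sst pools and 613 to 871 CPM in Trpv1 pools, and the satellite glia list (7 genes) to 340 to 718 and 267 to 482 CPM in the same order of groups. No glial gene was at 0 in all libraries. Of the 15 tested, 0 passed in edgeR, DESeq2 or voom, while 2 Schwann cell markers (both lower) and 1 satellite glia marker (Glul, higher) had an unadjusted edgeR p under 0.05. The summed glial level was 1006 ± 284 CPM in Sst pools and 1108 ± 212 CPM in Trpv1 pools (SD, n = 4 each; exact permutation test, two-sided, p = 0.600). Fibroblast markers summed to 50.3 to 311 CPM in Sst pools and 58.8 to 265 CPM in Trpv1 pools, and the macrophage marker C1qa was at 0 in all libraries. Trpv1 replicates 1 and 2 held Y-linked counts and 0 counts of Xist, whereas the other 6 libraries held Xist and 0 Y-linked counts. No Sst library thus showed male transcripts, and sex was partly confounded with genotype. Pituitary markers summed to 457 CPM in Sst replicate 2, to at most 3.88 CPM in the other Sst libraries, to between 1634 and 1750 CPM in Trpv1 replicates 1 to 3, and to 0 CPM in Trpv1 replicate 4.

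Of the 8 genes, Ano1 alone was called, and for the abundant members no difference passed the test. Of 6 members tested, 1 was higher in Sst pools, 0 were lower and 5 did not pass (edgeR quasi-likelihood test, Benjamini-Hochberg adjusted p under 0.05 over 11828 genes), and DESeq2 and voom gave the same 1 call. The members had a median log2 fold change of 0.02 against 0.01 over all genes tested. Across all tested genes 6.35% passed, 3.04% higher and 3.31% lower in the Sst libraries. The groups' CPM ranges failed to overlap for 1 of the 6 members and for 11.1% of all genes tested. A single call among 6 genes says nothing of the group as a whole beside that background. The member without overlap was Ano1, which passed the filter on low counts through its Sst libraries alone, so its ranges could not overlap. Best1 and Slc12a5 did not pass the filter on low counts, which asks for about 10 counts in at least 4 libraries. They are described by their counts.

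**Figure D1:**
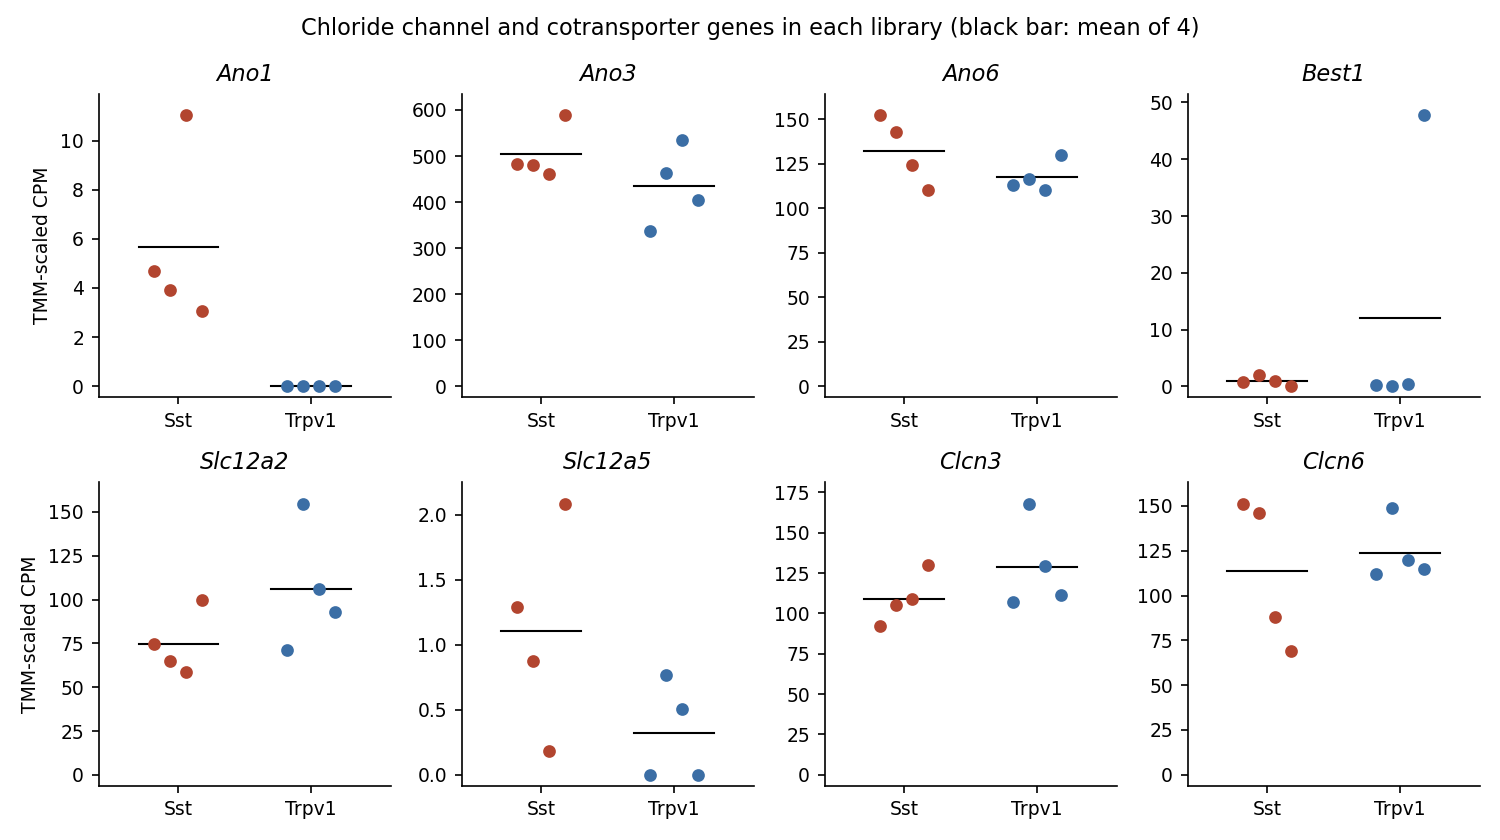
TMM-scaled CPM of each gene in each library, Sst on the left and Trpv1 on the right, with replicates 1 to 4 from left to right in each group and the black bar at the group mean. Ano1 is at 0 in the 4 Trpv1 libraries, Best1 is high in Trpv1 replicate 4 alone, and the ranges of the other genes overlap.

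Ano1 encodes TMEM16A, a calcium-activated chloride channel of the plasma membrane that is also opened by heat in nociceptors of mouse. It was counted in every Sst library and in no Trpv1 library. The counts were 47, 36, 119 and 34 in Sst replicates 1 to 4, or 4.68, 3.92, 11.0 and 3.08 CPM. In Trpv1 replicates 1 to 4 the count was 0 each time, where 3 counts over the group would be 0.0863 CPM. The groups did not overlap, which had to hold for a gene that passed the filter on low counts through the Sst libraries alone. Sst replicate 3 held about as many counts as the other Sst libraries together. With that floor of 3 counts over the Trpv1 group, Ano1 was at least 66.7-fold higher in the Sst libraries (edgeR adjusted p = 0.0198). Without Sst replicate 3 it was at least 44.9-fold higher (edgeR adjusted p = 0.0481). Counts carried no molecular identifiers, so the floor covers counting error only.

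The call of Ano1 rested on few reads and few libraries. It held when any Sst library was left out. It was lost when any Trpv1 library was left out (adjusted p from 0.0576 without replicate 4 to 0.0718 without replicate 3), with a term for Xist (adjusted p = 0.111) and in the 6 libraries with Xist (adjusted p = 0.183). The counts of the remaining Trpv1 libraries were 0 in each of those fits. Ano1 stood low among tested genes, with 10.8% of them below it.

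The Ano1 gene lies at chr7:144588549-144751974 on the minus strand of GRCm38. The 250 bases before its RefSeq start (GRCm38.p6, chr7:144738574-144738823, minus strand) lie inside that span, which also holds an earlier start. They are shown because Ano1 was the only member called. Capitals mark matches to the GC box GGGCGG, searched on both strands.
Ano1: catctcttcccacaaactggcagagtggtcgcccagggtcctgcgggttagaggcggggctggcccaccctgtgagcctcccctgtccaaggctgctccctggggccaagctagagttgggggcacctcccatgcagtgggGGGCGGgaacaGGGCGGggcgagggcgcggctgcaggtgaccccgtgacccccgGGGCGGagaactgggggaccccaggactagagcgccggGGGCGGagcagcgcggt
The window held 4 GC boxes, 72.0% G and C and 16 CpG pairs, against medians of 52.4% and 6 over 32851 mouse promoter windows of the same length, and 32.7% of those windows held at least 1 GC box. The TATA box TATAAA (in 12.4% of windows) and the RUNX core TGTGGT (in 14.0%), also searched on both strands, had no match in it. Promoter windows were found in the RefSeq table for 7 of the 8 genes, 10 windows in all, and the RUNX core had a match in none of them. A match describes the letters and not a bound factor.

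There were 3 genes that followed Ano1 most closely over the 8 libraries. By Pearson correlation of log2 CPM they were Sema5b (r = 0.996), a semaphorin of axon guidance, Runx3 (0.994), a transcription factor of proprioceptor development, and Slc17a7 (0.990), the vesicular glutamate transporter VGLUT1. Runx3 stood at 5.18, 5.12, 9.08 and 5.08 CPM in Sst replicates 1 to 4 and had 0 counts in all Trpv1 libraries. Sema5b likewise ran from 14.6 CPM in Sst replicate 2 to 91.7 CPM in Sst replicate 3, with 0 in all Trpv1 libraries. Slc17a7 ran from 29.9 to 60.9 CPM in Sst pools and reached 0.127 CPM in 1 Trpv1 library. All 3 genes, like Ano1, were highest in Sst replicate 3, which also had the highest sum of large myelinated neuron markers (1817 CPM). Nefh and Ntrk2 were highest there too. Pvalb was highest in Sst replicate 2 (38.4 CPM against 13.9 in replicate 3) and Ntrk3 in Sst replicate 1 (82.0 against 77.8). The 3 genes were picked by their correlation with Ano1, so a shared highest library is part of that choice. The correlations mostly reflect the step between groups, since the Trpv1 values are at or near 0. The part of the large-neuron transcripts in the level of Ano1 was not tested.

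**Figure D2:**
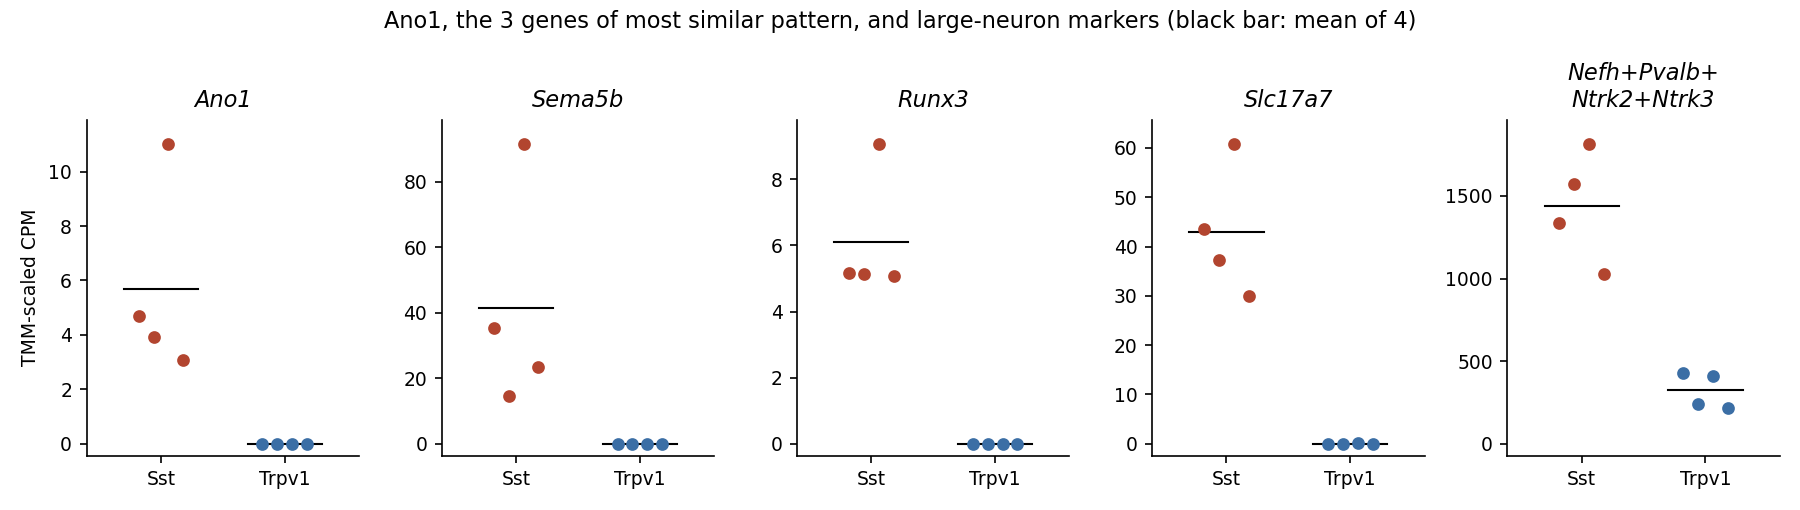
TMM-scaled CPM of Ano1, of the 3 genes whose pattern over 8 libraries was most similar, and of 4 large myelinated neuron markers in sum (Nefh, Pvalb, Ntrk2 and Ntrk3), Sst left and Trpv1 right, replicates 1 to 4 from left to right, black bar at the mean. Sst replicate 3 is the highest library in every panel, and the marker sum, unlike the 4 genes, stays at 214 CPM or more in the Trpv1 libraries.

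Ano3, which encodes TMEM16C, was the most abundant member in both populations. In rat sensory neurons TMEM16C has been described as a partner that enhances the sodium-activated potassium channel Slack. Ano3 stood at 483, 481, 460 and 589 CPM in Sst replicates 1 to 4, and at 337, 463, 536 and 405 CPM in Trpv1 replicates 1 to 4. The groups overlapped, and 98.3% of all tested genes had a lower level. The log2 fold change was 0.21 (95% interval −0.18 to 0.61, edgeR adjusted p = 0.591). The coefficient of variation was 11.5% in Sst pools and 19.4% in the Trpv1 libraries. Muc15 lies within Ano3 on the opposite strand and shares 61 exonic bases with it, 0.845% of the Ano3 exons.

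Ano6 encodes TMEM16F, a calcium-dependent phospholipid scramblase that also passes ions and is needed by platelets for clotting. It stood at 152, 143, 124 and 110 CPM in Sst replicates 1 to 4, and at 113, 116, 110 and 130 CPM in Trpv1 replicates 1 to 4. The Trpv1 values all lay inside the Sst range, and the log2 fold change was 0.17 (95% interval −0.32 to 0.66, edgeR adjusted p = 0.751). The antisense gene A130051J06Rik shares 214 exonic bases with it (1.74% of the Ano6 exons) and Gm49172 shares 122 (0.994%), and without known use of strand their reads cannot be told apart. Ano6 is used by many cell types, glia included, and the part of glial transcripts in its level was not tested.

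Best1, a calcium-activated chloride channel best known from the retinal pigment epithelium, was near 0 apart from a single library. Counts were 8, 19, 10 and 0 in Sst replicates 1 to 4, and 3, 0, 3 and 450 in Trpv1 replicates 1 to 4. Trpv1 replicate 4 thus held 47.8 CPM, against at most 0.381 CPM in the other Trpv1 libraries and at most 2.07 CPM in any Sst library. Fth1, the ferritin heavy chain gene whose annotated end lies 75 bases from the end of Best1 on the opposite strand (chromosome 19), had 3222 counts in Trpv1 replicate 4, inside the range of the other 7 libraries (2110 to 4076). Without the filter on low counts Best1 had a log2 fold change of −3.76 (edgeR adjusted p = 0.0740), a value set by that 1 library.

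Slc12a2 was well counted in every library. It stood at 74.4, 65.1, 58.9 and 99.5 CPM in Sst replicates 1 to 4, and at 71.4, 155, 106 and 92.7 CPM in Trpv1 replicates 1 to 4. The groups overlapped, with a lower mean in the Sst libraries (log2 fold change −0.51, 95% interval −1.11 to 0.10, edgeR adjusted p = 0.350). Among the 5 tested members that did not pass, this was the difference with the smallest p, and its sign was negative in all 18 alternative fits (−0.68 to −0.25), none of which called it.

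Slc12a5 transcripts were hardly present. Counts were 13, 8, 2 and 23 in Sst replicates 1 to 4, and 0, 6, 4 and 0 in Trpv1 replicates 1 to 4. The highest Sst library reached 2.09 CPM and the highest Trpv1 library 0.767 CPM. The groups overlapped, and without the filter on low counts the log2 fold change was 1.95 (edgeR adjusted p = 0.757). Per kilobase of exon, Slc12a2 stood at 6.82 ± 1.64 CPM in Sst pools and 9.73 ± 3.24 CPM in Trpv1 pools, and Slc12a5 at 0.149 ± 0.107 and 0.0428 ± 0.0514 CPM in the same order of groups (SD, n = 4 each). Slc12a2 stood above Slc12a5 per kilobase in each of the 8 libraries.

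Slc12a7, which encodes the chloride extruder KCC4, stood at 9.68 ± 11.3 CPM in Sst pools and 1.28 ± 1.85 CPM in Trpv1 pools (edgeR adjusted p = 0.0963), with 26.5 CPM in Sst replicate 2.

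Clcn3 encodes an endosomal and vesicular exchanger whose loss causes neurodegeneration in mice. It stood at 92.0, 105, 109 and 130 CPM in Sst replicates 1 to 4, and at 107, 168, 129 and 112 CPM in Trpv1 replicates 1 to 4. The groups overlapped (log2 fold change −0.24, 95% interval −0.76 to 0.28, edgeR adjusted p = 0.657).

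Clcn6, an exchanger of late endosomes found mainly in neurons, has a link to pain in mice, since animals lacking it store material in their neurons and have reduced pain sensitivity. The gene also sits beside the natriuretic peptide genes. On chromosome 4 of GRCm38 Nppb (147985788 to 147987205) and Nppa (148000722 to 148002079) lie 17.1 and 2.18 kilobases from Clcn6 (148004259 to 148038821, minus strand). Clcn6 stood at 151, 146, 87.8 and 68.8 CPM in Sst replicates 1 to 4, and at 112, 149, 120 and 115 CPM in Trpv1 replicates 1 to 4. Sst replicates 1 and 2 lay near the top of the Trpv1 range and Sst replicates 3 and 4 below it. The log2 fold change was −0.13 (95% interval −0.70 to 0.44, edgeR adjusted p = 0.850), and its coefficient of variation was 36.5% in Sst pools and 13.6% in the Trpv1 libraries. Nppb did not pass either. This gene, which encodes an itch transmitter, stood at 42.1 ± 19.3 CPM in Sst pools and 18.9 ± 7.33 CPM in Trpv1 pools (edgeR adjusted p = 0.129). Nppa, too low to test, had counts (30) in Sst replicate 3 alone.

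Levels can be compared between genes per kilobase of annotated exon, although the annotation joins the exons of all isoforms, so long rare exons (Clcn3 has 17.1 kilobases) lower a value. In the Sst libraries the order was Ano3 (69.8 CPM per kilobase), Clcn6 (19.1), Ano6 (10.8), Slc12a2 (6.82), Clcn3 (6.39), Ano1 (0.910), Best1 (0.368) and Slc12a5 (0.149). In the Trpv1 libraries it was Ano3 (60.3 CPM per kilobase), Clcn6 (20.9), Slc12a2 (9.73), Ano6 (9.57), Clcn3 (7.55), Best1 (4.70, from 1 library), Slc12a5 (0.0428) and Ano1 (0). Ano3 lay above the next gene in every library of both groups. Ano6, Slc12a2 and Clcn3 overlapped as neighbours in both groups, Clcn6 overlapped the next gene in the Sst libraries, and Best1 overlapped its neighbours on both sides in both groups.

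**Figure D3:**
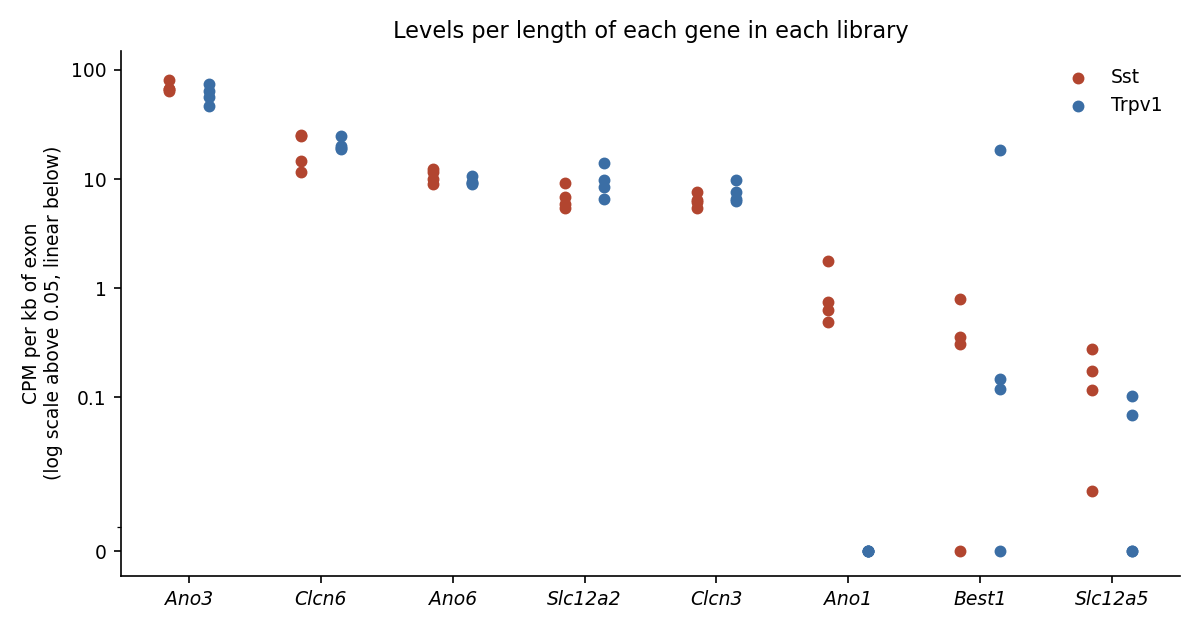
CPM per kilobase of exon (log scale above 0.05, linear below) for each gene, ordered by its mean in the Sst libraries, with 1 point per library and Sst left of Trpv1. Ano3 is highest at 46.7 to 81.6, Clcn6, Ano6, Slc12a2 and Clcn3 lie between 5.39 and 25.5, and Ano1, Best1 and Slc12a5 lie lower except Best1 in Trpv1 replicate 4.

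Other genes of the same families were listed by family, with earlier results of these data known. They gave 3 calls among 22 tested (1 higher and 2 lower in the Sst libraries) of 37 found in the table. For comparison, 6.35% of all genes tested passed. The median log2 fold change of the 22 genes was −0.21. Ano4, an anoctamin described as a scramblase and cation channel, was higher in the Sst libraries. It stood at 33.9, 78.9, 81.7 and 19.8 CPM in Sst replicates 1 to 4, and at 6.52, 23.5, 7.74 and 2.97 CPM in Trpv1 replicates 1 to 4 (log2 fold change 2.44, SE 0.559, edgeR adjusted p = 0.00804). The groups overlapped only in that Sst replicate 4 lay under Trpv1 replicate 2. Of the remaining anoctamins, Ano8 and Ano10 did not pass, Ano10 without overlap (3.13 ± 1.35 CPM in Sst pools and 6.86 ± 2.00 CPM in Trpv1 pools), Ano5, Ano7 and Ano9 were too low to test and Ano2, the olfactory calcium-activated chloride channel, had 0 counts in all libraries.

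Among volume-regulated anion channels, which open on cell swelling and are built from LRRC8 proteins around the obligatory subunit LRRC8A, the accessory subunits Lrrc8b and Lrrc8d were lower in the Sst libraries. Lrrc8b stood at 26.9, 11.2, 10.6 and 31.2 CPM in Sst replicates 1 to 4, and at 79.0, 35.8, 98.0 and 57.6 CPM in Trpv1 replicates 1 to 4 (log2 fold change −1.75, SE 0.416, edgeR adjusted p = 0.0110). Lrrc8d stood at 39.4, 28.8, 15.9 and 47.4 CPM in Sst replicates 1 to 4, and at 64.6, 64.8, 76.9 and 91.2 CPM in Trpv1 replicates 1 to 4 (−1.18, SE 0.349, edgeR adjusted p = 0.0432). Neither gene overlapped between groups. Lrrc8a (28.6 ± 3.65 CPM in Sst pools and 26.6 ± 7.59 CPM in Trpv1 pools) and Lrrc8c (223 ± 45.3 and 214 ± 42.7 CPM in the same order) did not pass. The call of Lrrc8b was lost without Sst replicate 3 (adjusted p = 0.0564) or Trpv1 replicate 3 (0.0593), and that of Lrrc8d in 12 of 18 alternatives, including 7 of 8 fits with a library left out, where Sst replicate 4 was the exception (0.0714 to 0.151 in the 7).

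None of the other 4 tested Slc12 genes or 7 tested CLC genes and subunits passed in edgeR, DESeq2 or voom, and Slc12a7 and Clcn7 alone had an unadjusted edgeR p under 0.05. Clcn5, an endosomal exchanger close to Clcn3 in sequence, was the most abundant of the CLC list at 102 ± 25.4 CPM in Sst pools and 121 ± 24.9 CPM in Trpv1 pools (log2 fold change −0.25, edgeR adjusted p = 0.658). Clcn7, the lysosomal exchanger, stood at 14.4 ± 7.10 CPM in Sst pools and 4.21 ± 3.47 CPM in Trpv1 pools (1.71, edgeR adjusted p = 0.152).

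**Figure D4:**
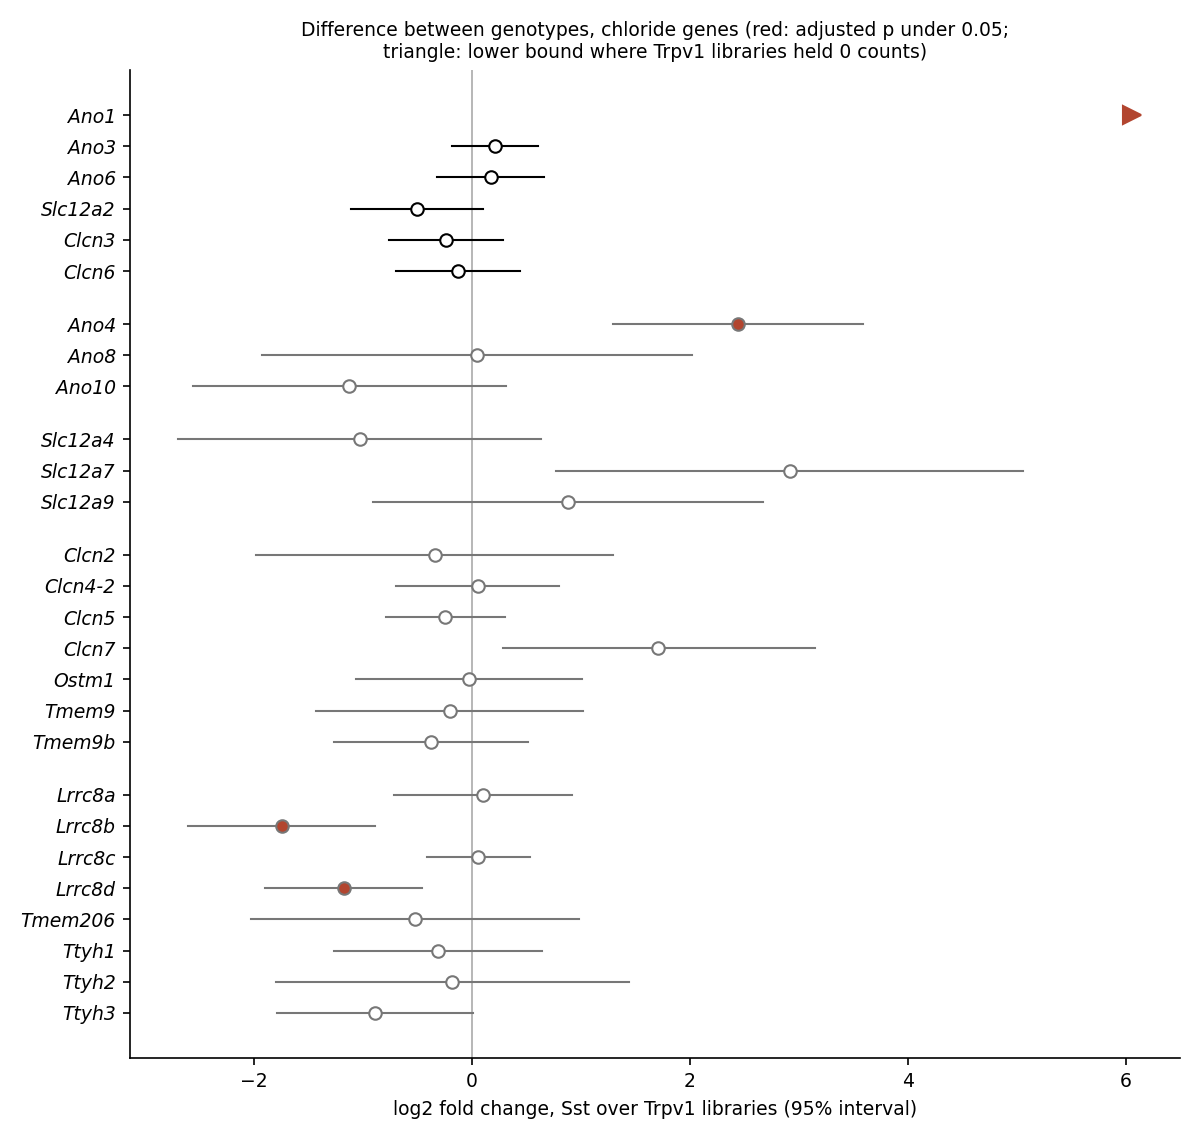
Log2 fold change, Sst over Trpv1, with its 95% interval for the tested members (black) and for most of the other tested chloride genes in blocks by family (grey), filled red where the adjusted p is under 0.05. Ano1 is drawn as a triangle at its lower bound of 6.06, Ano4 lies at 2.44, Lrrc8b and Lrrc8d lie at −1.75 and −1.18, and the intervals of Ano3, Ano6, Slc12a2, Clcn3 and Clcn6 span 0.

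Of the kinases that regulate Slc12 cotransporters by phosphorylation, 1 of 7 tested was higher in the Sst libraries and 0 were lower. The share that passed among all genes tested was 6.35%. Wnk3 was lower at an unadjusted edgeR p under 0.05, and DESeq2 called 2 of the kinases. Stk39 encodes SPAK, which activates NKCC1 and inhibits the potassium-chloride cotransporters. It stood at 176, 133, 198 and 273 CPM in Sst replicates 1 to 4, and at 110, 65.6, 148 and 58.9 CPM in Trpv1 replicates 1 to 4 (log2 fold change 1.04, SE 0.294, edgeR adjusted p = 0.0347). Sst replicate 2 lay under Trpv1 replicate 3, and the call was lost in 10 of 18 alternatives, including 6 of 8 fits with a library left out (0.0610 to 0.113), where Sst replicate 2 and Trpv1 replicate 3 were the exceptions. Wnk1, the kinase that activates SPAK, was abundant and not called (792 ± 73.5 CPM in Sst pools and 704 ± 103 CPM in Trpv1 pools, adjusted p = 0.637).

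Genes that act with Ano1 in sensory neurons were listed too, as sources of calcium or as channels that signal together with it. They gave 2 calls among 11 tested, both higher in the Sst libraries, beside 6.35% of all genes tested that passed. One of the 2 called was Kcnq3, a potassium channel subunit of the M current, which bradykinin closes while opening Ano1. Kcnq3 stood at 183 ± 45.6 CPM in Sst pools and 12.7 ± 11.3 CPM in Trpv1 pools (log2 fold change 3.90, edgeR adjusted p = 1.16e-06). The bradykinin receptor gene Bdkrb2, from the same list, was too low to test. It was at 0 in every Sst library, and Trpv1 replicates 1 to 4 held 0, 9, 2 and 7 counts of it. A bradykinin response of either population was not tested. Itpr1, a calcium release channel of the endoplasmic reticulum that binds Ano1, did not pass (27.5 ± 14.6 CPM in Sst pools and 11.8 ± 3.70 CPM in Trpv1 pools, adjusted p = 0.188). Trpv1 itself stood at 73.3, 77.9, 49.7 and 203 CPM in Sst replicates 1 to 4, and at 130, 184, 160 and 308 CPM in Trpv1 replicates 1 to 4 (log2 fold change −0.95, edgeR adjusted p = 0.109). The groups overlapped through Sst replicate 4. Trpv1 was called lower in the Sst libraries in 3 of 18 alternatives, which were voom (−1.19, adjusted p = 0.0191), the replicate block (−1.07, edgeR adjusted p = 0.0305) and the fit without Sst replicate 4 (−1.55, edgeR adjusted p = 0.00307). Transcripts of Trpv1 were therefore counted in all 4 Trpv1 libraries without any count of Ano1.

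Receptors that pass chloride were listed as well. Over all genes tested, 3.04% were called higher and 3.31% lower in the Sst libraries. Of 11 GABA-A and glycine receptor subunits tested, 4 were higher in Sst pools, 2 were lower and 5 did not pass. Among those that passed were Gabrb2 (27.1 ± 4.62 CPM in Sst pools and 0.186 ± 0.224 CPM in Trpv1 pools), Gabrg1 (14.9 ± 6.58 and 0.647 ± 0.314 CPM) and Gabrg3 (0.715 ± 1.20 and 55.0 ± 29.0 CPM), with edgeR adjusted p from 2.57e-06 to 0.00194. Gabra5 (6.11 ± 1.73 CPM in Sst pools and 0.322 ± 0.322 CPM in Trpv1 pools) and Gabra3 (1.02 ± 1.34 and 9.54 ± 9.46 CPM) also passed, but were called in 7 and 6 of 17 alternatives.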

How the data were processed

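RNA was sequenced from 4 pools of hand-picked fluorescent neurons per genotype, which the labels describe as independent samples. The authors deposited raw counts per gene symbol; per the submitters' processing notes, bcl2fastq 2.17, Trimmomatic 0.33, featureCounts and the GRCm38 build were used. Aligner, annotation and strand setting: not given in the sources used here. No column was left unused.

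From the counts, genes passing edgeR's expression filter (minimum count 10) were scaled by TMM and tested with edgeR 4.0.16 in R 4.3.3 (quasi-likelihood test, robust, genotype as the only term), with Benjamini-Hochberg adjustment over 11828 genes. The biological coefficient of variation was 69.1%. DESeq2 1.42.0, voom in limma 3.58.1, other filters and scalings, a replicate block, a term for Xist, and leaving out each library were alternatives. Exon lengths and positions came from GENCODE and promoter windows from RefSeq.

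The members and lists were chosen with earlier results of these data known. By rule the text names all 8 members, up to 4 called genes from every further list (where none was called, the tested gene with the highest level), the 3 genes with the highest correlation with Ano1 and genes that overlap a member. Other named genes, such as Slc12a7, Clcn7, Itpr1, Bdkrb2, Wnk1, Ano10, Lrrc8a and Lrrc8c, were chosen after their values were seen. Some results of the lists are not reported here.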

Additional observations from a re-analysis of the deposited data

Results flagged for a closer look

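In 18 groups of 4 libraries, 2 held a library far from the other 3, where chance would flag about 1 group in 20. Best1 stood at 47.8 CPM in Trpv1 replicate 4, with 0 to 0.381 CPM in the other Trpv1 libraries. The summed glial markers stood at 1430 CPM in Sst replicate 4, with 836 to 886 CPM in the other Sst libraries. Outside these 2 flags, the pituitary marker sums also set apart Sst replicate 2 (457 CPM) and Trpv1 replicate 4 (0 CPM).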

How the results depend on the processing

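Genes called numbered 751, against 1204 with DESeq2, 435 with a term for Xist, 305 in the libraries with Xist only, 493 with the quasi-dispersions of edgeR 3 (an alternative chosen after seeing the data) and 452 to 747 with 1 library left out. The 1 member called, Ano1, became 0 members with the filter of 5 CPM in 4 libraries, where Ano1 was not tested, and 0 with the Xist term. With 1 library left out it was 0 to 1. In the libraries with Xist only, 0 members were higher and 1, Best1, was lower. Best1 had 3 and 450 counts in the Trpv1 libraries of that fit, so its call rests on Trpv1 replicate 4. Calls among the other chloride genes ran from 1 to 3 with 1 library left out. The 1 kinase call became 2 with DESeq2 and 0 with the replicate block, the Xist term, edgeR 3 dispersions or libraries with Xist only, and ran from 0 to 1 with 1 library left out. The 2 calls among Ano1 partners became 4 with voom and 1 with the Xist term, edgeR 3 dispersions or libraries with Xist only, and ran from 1 to 3 with 1 library left out. The 6 receptor calls became 3 in the libraries with Xist only. The cause of these changes was not tested. Fits with libraries left out also had fewer samples. Xist and Y-linked counts split the Trpv1 libraries alone, so the Xist term rests on 2 against 2 Trpv1 libraries. Same-numbered libraries did not deviate together (correlations −0.0296 to 0.0316, and 1 of 4 Sst libraries correlated best with its own number). The replicate block called 572 genes, 559 of them shared. Ano1 and Slc12a5 rest on few counts, as does Best1 outside Trpv1 replicate 4 (450 counts).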
